A study of Rattus norvegicus with 36 samples.

Results

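MicroRNAs (miRNAs) of the prefrontal cortex (PFC) were compared between rats that self-administered heroin, 6 libraries numbered 1 to 6, and rats that self-administered saline, 6 libraries numbered 7 to 12. They are 12 of the 36 small RNA libraries of a study that also covered the nucleus accumbens (NAc) and serum. All were adult male Sprague-Dawley rats that arrived at 8 weeks of age, and both groups carried a jugular catheter. Heroin was delivered at 0.075 mg/kg per infusion, with 6 h of access a day in 10 daily sessions, and the animals were killed within 60 min of the last one. No drug-naive or unoperated group was analysed here, so both arms share the surgery and the operant sessions. The 706 annotated rat miRNA names of the table were described, of 861 names in all, and 258 of them had too few counts to be tested. Total counts ran from 3419438 in heroin 2 to 20773798 in saline 9. The labels call the libraries biological replicates but give no animal identities, so p-values measure the spread between these libraries.

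A mature miRNA is a short RNA cut from 1 arm of a hairpin, the 5p or the 3p arm, and loaded into an Argonaute protein. It represses mRNAs that pair with its seed, bases 2 to 8 from its 5′ end, so miRNAs with the same seed share most predicted targets. The prefrontal cortex is a main target of the mesocortical dopamine pathway and takes part in the control of drug seeking. Whole tissue holds neurons, glia, vessels and blood, and in such bulk RNA fewer cells of a type and less RNA per cell cannot be told apart.

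The 10 miRNAs with the highest mean share of PFC counts are shown because they carry most of the measured signal. Their sequences are from RefSeq (GRCr8), 5′ to 3′, with the seed in capitals.
miR-9a-5p: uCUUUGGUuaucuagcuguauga
miR-128-3p: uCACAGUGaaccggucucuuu
let-7f-5p: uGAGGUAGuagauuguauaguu
miR-127-3p: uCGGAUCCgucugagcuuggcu
miR-148a-3p: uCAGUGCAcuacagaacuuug
let-7i-5p: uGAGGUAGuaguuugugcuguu
miR-26a-5p: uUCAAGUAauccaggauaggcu
let-7g-5p: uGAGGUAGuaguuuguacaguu
miR-129-5p: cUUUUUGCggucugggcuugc
miR-7a-5p: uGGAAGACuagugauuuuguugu
The 3 let-7 members have the same seed, GAGGUAG, and each of the other 7 has a seed of its own.

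Some of these counts appear under a second name. Of 32 pairs of names whose PFC counts differed by at most 5%, 28 were reverse complements of each other, and in all 28 the RefSeq positions lay on opposite strands of 1 locus. These 3 second names are shown because they stand for large or named signals.
miR-9b-3p: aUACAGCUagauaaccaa
miR-3596d: cUAUACAAucuacuaccuca
miR-3556b: aCCGAUUUcaaauggugcua
They are the reverse complements of stretches of miR-9a-5p, let-7f-5p and miR-29c-3p. The summed counts were 21550616 for miR-9a-5p and 21480719 for miR-9b-3p, a difference of 0.162% of both together. For let-7f-5p and miR-3596d they were 7246519 and 7026128, a difference of 1.54%. In 5 of the 28 pairs the counts were equal in total, as for miR-338-3p and miR-3065-5p with 6197 each. In 18 more they differed by under 1%, and in the remaining 5 by 1.34% to 4.43%. Whether the counting used strand is not given in the sources used here, so in these 28 pairs a sense miRNA and its antisense name cannot be told apart. Of all reverse-complement pairs compared, 35 lay on opposite strands of 1 locus, and those beyond the 28 differed by more than 5%. An example is miR-29a-3p with 406941 counts and miR-3556a with 34366. Second names took 13.3% to 26.5% of the counts of a PFC library. Each pair of a miRNA and its second name was named once below, under the name kept for it, and counted once in the lists. Library totals, levels in CPM (counts scaled to a library total of 1e+06), arm ratios and counts over all tested names hold both names.

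miRNA levels were steeply skewed. Of the 706 annotated names, 676 were detected in at least 1 PFC library, 476 in all 12 and 30 in none. The 16 names with a mean of at least 10000 CPM took 77% of the counts, and the 76 with at least 1000 CPM took 95.5%. miR-9a-5p, a regulator of neural progenitors and neurons, led with 16% ± 3.45 (SD, n = 12) of the counts. miR-128-3p, a neuronal miRNA that restrains excitability, followed with 7.75% ± 5.33 (SD, n = 12), and a single library, saline 12, held 245029 CPM of it against 49493 to 76075 CPM in the other 11. let-7f-5p followed with 4.92% ± 1.67 and miR-127-3p, of the imprinted Dlk1-Dio3 region, with 4.61% ± 0.963 (SD, n = 12 each).

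Grouped by seed, the miRNAs with a RefSeq sequence fell into 516 families. miR-9a-5p, alone in its family, and let-7, with 9 names, held 16% and 13.8% of the counts. miR-128-3p with 7.75% and the miR-148 and miR-152 family with 4.33% were also prominent. Of the annotated names, 90.8% had a sequence, and those without one, among them miR-124-3p, entered no family.

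The tissue label was checked against marker miRNAs. The 15 neuronal miRNAs summed to between 263164 and 362350 CPM in a library. miR-124-3p, the classic neuronal miRNA, had a mean of 1118 CPM, and the neuronal miR-218a-5p 4960 CPM. The 8 Hox-cluster miRNAs, which mark hindbrain and spinal levels, summed to 21.1 to 382.5 CPM. The 6 striated-muscle miRNAs of the list, which leaves out miR-1b, summed to 60.8 to 328 CPM. miR-1b alone was at 120 to 1368 CPM. The hepatocyte miR-122-5p had a median of 2.90 CPM in heroin and 1.07 CPM in saline libraries. The myeloid miR-223-3p reached at most 2.03 CPM and was at 0 in saline 12, where 3 counts, the limit that a count of 0 allows, would be under 1 CPM.

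Libraries saline 8 and saline 12 stood apart from the rest. Their log2(CPM + 1) values had mean Pearson correlations of 0.922 and 0.935 with the other libraries, against 0.966 to 0.978 for the remaining 10. Of 418 miRNAs compared, 195 in saline 8 and 179 in saline 12 lay over 2-fold from the median of the other 11 libraries, against 10 to 51 in the remaining 10. The 2 libraries did not deviate alike: 38 miRNAs were high in both, 12 low in both and 31 high in one and low in the other. The Spearman correlation of their deviations over the 418 miRNAs was 0.049, given as a description. Both had total counts within the range of the others, 6469281 and 6384988.

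**Figure D1:**
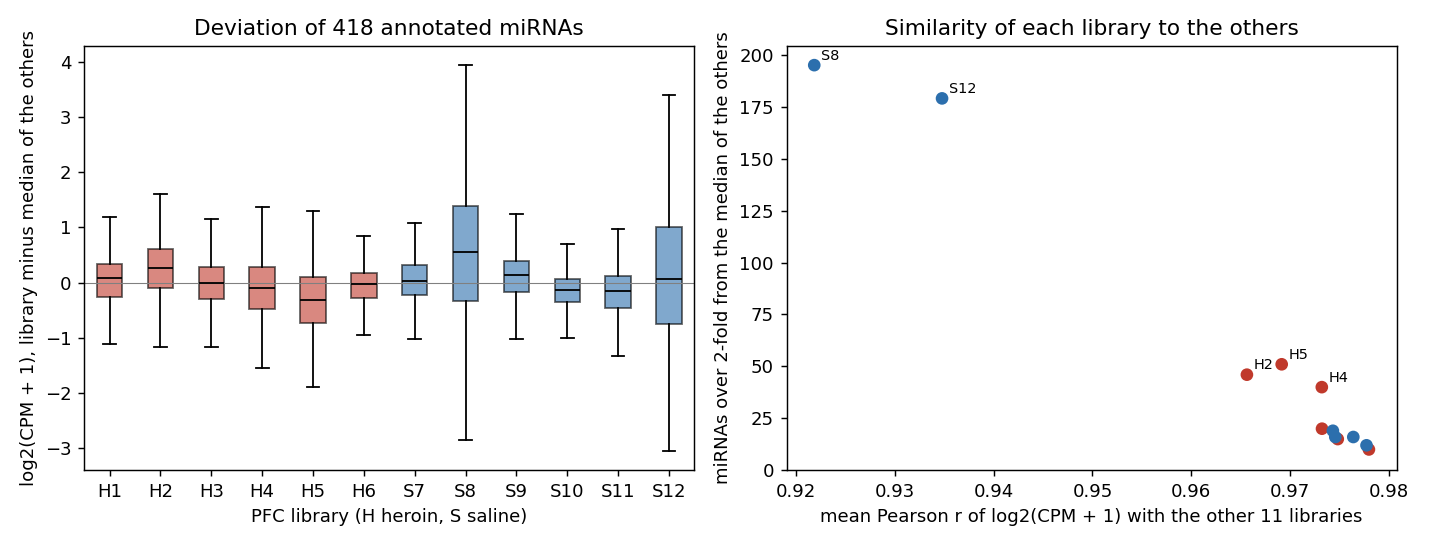
The left panel shows, for each PFC library, the deviation of 418 annotated miRNAs from the median of the other 11 libraries on a log2(CPM + 1) scale (boxes, quartiles; whiskers, within 1.5 interquartile ranges; heroin red, saline blue). The right panel plots the number of miRNAs over 2-fold away against the mean correlation, with saline 8 and 12 at 195 and 179 miRNAs.

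Saline 8 was high in some neuronal miRNAs, among others, and low in let-7. miR-331-3p was at 227 CPM in saline 8 and at 4.35 to 18.4 CPM in the other 11. miR-138-5p, a dendritic miRNA that limits spine size, was at 2144 CPM against 102.7 to 318 CPM. miR-326-3p, which lies within Arrb1, was at 830 CPM against 13.4 to 151 CPM. In the other direction, let-7f-5p was at 8818 CPM against 31417 to 64741 CPM and let-7g-5p at 4425 CPM against 8810 to 43690 CPM. The 9 let-7 miRNAs summed to 55340 CPM in saline 8 and to 108068 to 169687 CPM in the 10 libraries other than saline 8 and 12. The miR-29 list, whose members repress collagens and DNA methyltransferases, went the other way, with 9223 CPM in saline 8 and 1905 to 3738 CPM in those 10.

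Saline 12 was high in another set. miR-485-3p, a Dlk1-Dio3 miRNA, was at 2804 CPM against 104 to 191 CPM in the other 11. miR-9b-5p, which lies opposite miR-9a-3p at the same locus, was at 473 CPM against 31.3 to 105.6 CPM. miR-674-3p was at 3779 CPM against 293 to 1067 CPM and miR-760-3p at 201 CPM against 14.4 to 79.8 CPM. Low there were miR-329-5p, at 82.9 CPM against 793 to 2623 CPM, miR-1b at 120 CPM against 492 to 1368 CPM and the smooth-muscle miR-145-5p at 27.4 CPM against 51.7 to 684 CPM. The 4 red-cell miRNAs summed to 706 CPM in saline 12 and 295 CPM in saline 8, against 70.3 to 143.8 CPM in the remaining 10. Most of this was miR-486, with 4253 counts in saline 12 and 1586 in saline 8. miR-451-5p had 231 and 304 counts there, miR-144-3p 21 and 15 and miR-144-5p 4 and 3.

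The 2 arms of a hairpin are counted in the same library, so their ratio does not depend on how that library is scaled. Some hairpins hold second names, as miR-9b does for miR-9a-5p and miR-3065 for miR-338, so not all ratios are separate. Of 255 hairpins with both arms named, 121 had an arm with a mean under 10 counts and were left out. In the others the 5p to 3p ratio lay over 2-fold from the median of the others in 72 hairpins in saline 8 and in 78 in saline 12. In the remaining 10 libraries this held for 5 to 38 hairpins. In saline 8 the shifts included miR-543, whose 3p arm was at 84.2 CPM against 352 to 2092 CPM while its 5p arm was at 12.4 CPM against 1.57 to 2.92 CPM. In saline 12 they included miR-342, with the 5p arm at 46.2 CPM against 2.85 to 14.8 CPM and the 3p arm at 59.4 CPM against 134.4 to 750 CPM. These examples were chosen by the size of the shift after the values were seen.

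**Figure D2:**
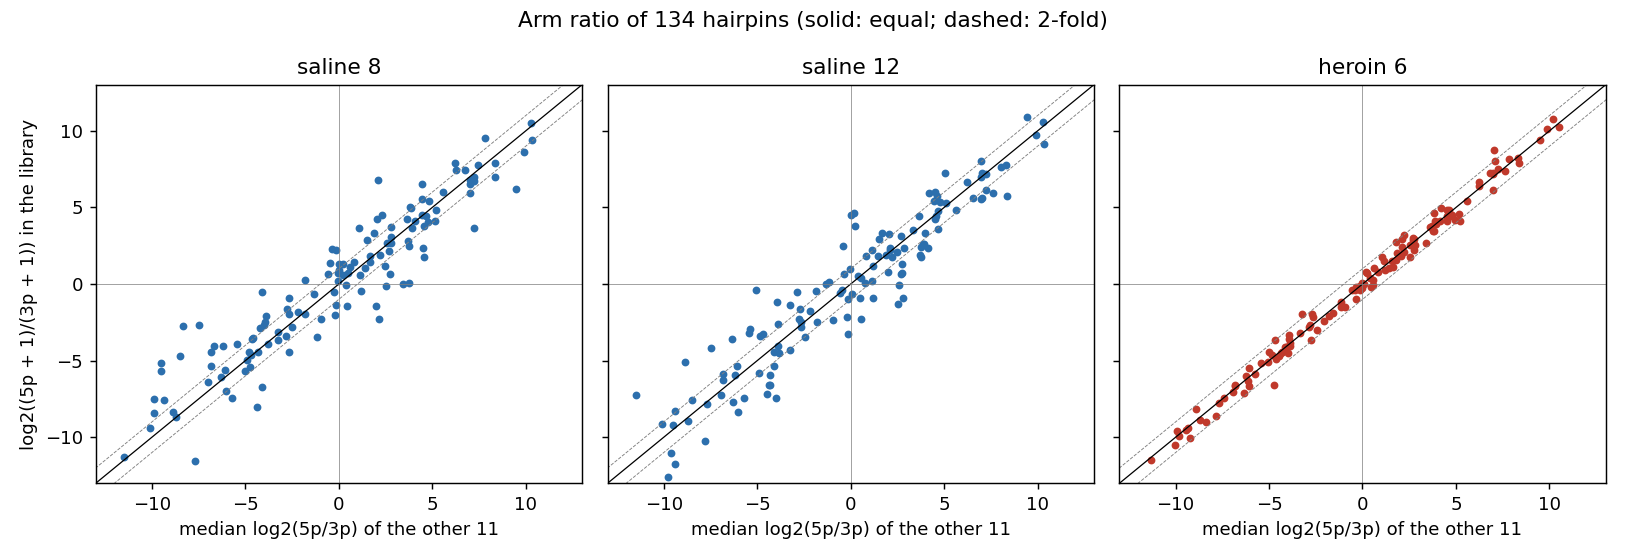
Each point is 1 hairpin, with the median log2 ratio of its 5p to 3p counts in the other 11 libraries on the x axis and its ratio in the named library on the y axis. Points leave the 2-fold band for 72 hairpins in saline 8 and 78 in saline 12, and for 5 in heroin 6.

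Heroin 5 had the most miRNAs over 2-fold away among the remaining 10 libraries, 51 of 418, with 10 higher and 41 lower. miR-7a-5p, abundant in hypothalamus and pancreatic islets, was at 78355 CPM against 7346 to 23880 CPM in the other 11 libraries, and miR-7b at 7237 CPM against 914 to 3143 CPM. miR-1298, which lies within the serotonin receptor gene Htr2c, was at 2019 CPM against 85.4 to 481 CPM. On the low side, miR-23a-3p was at 151 CPM against 167 to 1332 CPM and miR-145-5p at 51.7 CPM against 27.4 to 684 CPM. miR-92a-3p, of the miR-17 cluster, was at 65.6 CPM against 70.3 to 347 CPM, and miR-532-5p at 60.4 CPM against 64.8 to 366 CPM. The NAc libraries had means of 85099 CPM for miR-7a-5p and 1595 CPM for miR-1298. Across 418 miRNAs the deviation of heroin 5 had a Spearman correlation of 0.40 with the NAc minus PFC difference in log2 level, against 0.022 to 0.23 in the other 11. Both measures subtract the same PFC median, so the values are a description.

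No miRNA passed the test between heroin and saline. Of the annotated miRNAs tested with edgeR's quasi-likelihood test, 0 had a Benjamini-Hochberg adjusted p under 0.05, or 0%, and the smallest adjusted p was 0.995. At an unadjusted p under 0.05 there were 16 (3.57%), of which 5 had positive and 11 negative log2 fold changes, heroin over saline. These hold both names of miR-29c-3p and of miR-151-5p, so that with each pair counted once there were 14, 5 positive and 9 negative. The 5 positive names still hold both miR-122-5p and miR-122b, which moved together but did not meet the rule for a pair. DESeq2 and limma-voom also called 0. With saline 8 and 12 left out, again 0 of 450 passed (0%), with a smallest adjusted p of 0.998, and 4 had an unadjusted p under 0.05 (0.889%), all with positive values. These 4 also hold both miR-122-5p and miR-122b. No tested miRNA had heroin and saline libraries that did not overlap (0%), with or without the 2 libraries.

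The 2 saline libraries set many of the fold changes. With pairs counted once, all 9 negative values at an unadjusted p under 0.05 had saline 8 or saline 12 as the highest of the 12 libraries, 7 and 2 respectively. Without these libraries, 0 of the 9 stayed under 0.05. The miRNAs tested in both fits were the 706 annotated names less the 258 with too few counts. Over these the sign was the same in 239 and changed in nearly as many. Absolute log2 fold changes above 1 went from 30 with all libraries to 9 without the pair. Positive values made up 43.3% and negative values 56.7% with all libraries, and 48.4% and 51.6% without the pair.

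**Figure D3:**
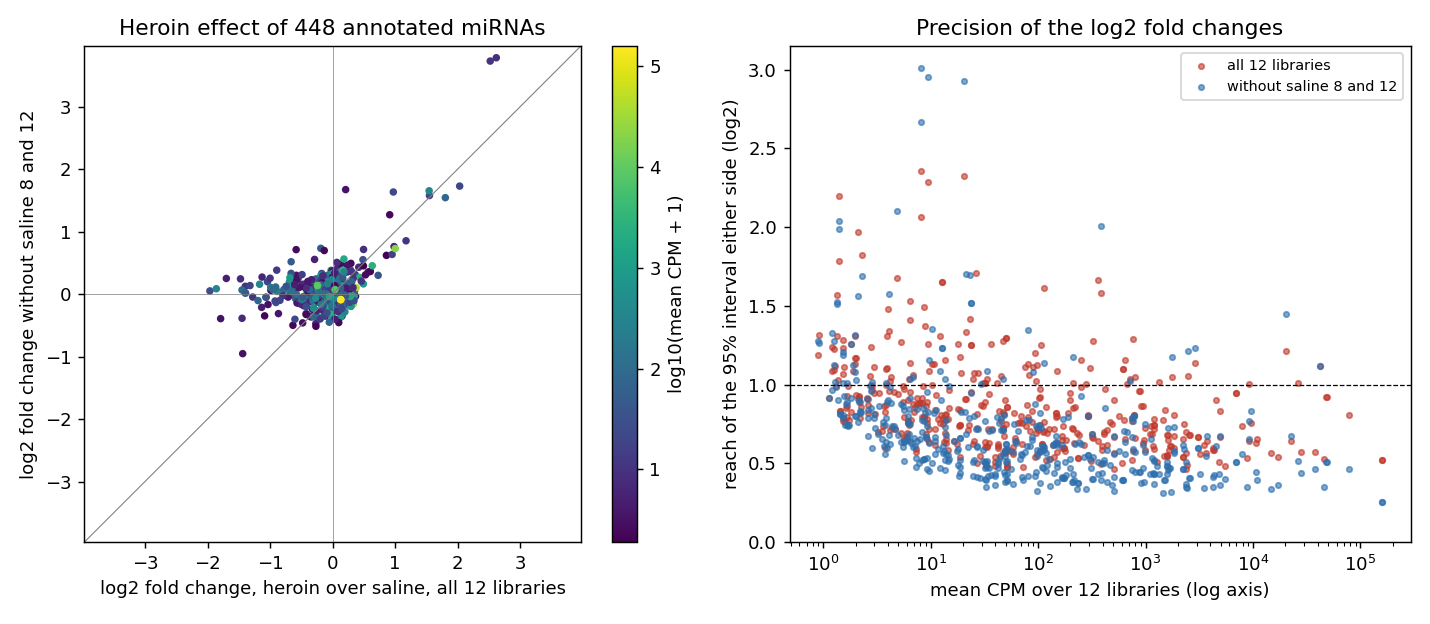
The left panel plots the log2 fold change, heroin over saline, without saline 8 and 12 against that from all 12 libraries for the annotated miRNAs tested in both fits, coloured by log10(mean CPM + 1), with the line of equality. The right panel plots how far the 95% interval reaches either side against mean CPM. Its median was 0.793 with all libraries (red) and 0.611 without the pair (blue), and the dashed line marks a 2-fold change.

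Among the negative values, miR-331-3p had 4.35, 6.18 and 18.4 CPM as lowest, median and highest in heroin and 5.65, 7.29 and 227 CPM in saline. Only saline 8 lay outside the heroin range. Its log2 fold change was -1.96 ± 0.81 (SE; adjusted p 0.995 by edgeR) and 0.05 ± 0.33 without saline 8 and 12. miR-485-3p had 116, 136.8 and 191 CPM in heroin and 104, 135.7 and 2804 CPM in saline, with nearly equal medians. Its value was -1.86 ± 0.78 and 0.09 ± 0.20 without the pair. miR-29c-3p, of the miR-29 family, had 14.6, 18.7 and 40.6 CPM in heroin and 10.9, 26.9 and 341.2 CPM in saline. It went from -1.39 ± 0.61 to 0.02 ± 0.29. For miR-376a-3p and miR-323-5p, both of the Dlk1-Dio3 region, saline 8 and saline 12 were the 2 highest libraries, and the values of -1.70 ± 0.70 and -1.32 ± 0.55 became 0.25 ± 0.42 and 0.14 ± 0.22. miR-664-2-5p went from -1.19 ± 0.52 to -0.10 ± 0.26 and miR-151-5p from -1.07 ± 0.47 to -0.05 ± 0.23. miR-324-3p was the exception in size: it went from -1.44 ± 0.62 to -0.95 ± 0.61, at a mean of only 1.98 CPM.

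Among the positive values, miR-10a-5p had the smallest p. The gene of this miRNA sits in a Hox cluster, and in mammals it is most abundant in caudal tissues.
miR-10a-5p: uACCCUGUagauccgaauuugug
miR-10b-5p: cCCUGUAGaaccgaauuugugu
These 2 sequences are shown because they are close relatives whose RefSeq entries start 2 bases apart, so bases 2 to 8 differ and they counted as separate families. miR-10a-5p had 30.2, 115 and 297 CPM as lowest, median and highest in heroin and 17.2, 29.1 and 75.0 CPM in saline. Every heroin library exceeded the median of saline, yet the groups overlapped. Its log2 fold change was 1.80 ± 0.53 (SE, unadjusted p 0.0039, adjusted p 0.995 by edgeR) and 1.54 ± 0.62 without saline 8 and 12. Leaving out 1 more library then moved it between 1.19, without heroin 2, and 1.95, and the unadjusted p stayed under 0.05 in 7 of 10 such fits. miR-10b-5p, which lies within Hoxd4, had 4.71, 21.1 and 83.1 CPM in heroin and 3.08, 8.73 and 25.03 CPM in saline, with 1.55 ± 0.63 and 1.58 ± 0.78 without the pair. The NAc libraries held more miR-10a-5p than the PFC, 173 against 79.9 CPM on average.

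miR-206-3p, best known from skeletal muscle and as a repressor of BDNF, changed sign with the 2 libraries. Its sequence is printed for comparison with miR-1b, with which it shares the seed.
miR-206-3p: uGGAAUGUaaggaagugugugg
miR-1b: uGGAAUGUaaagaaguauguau
miR-206-3p had 19.95, 38.1 and 63.2 CPM in heroin and 15.7, 27.2 and 164 CPM in saline, where saline 8 held 164 and saline 12 held 76.7 CPM. The other 4 saline libraries had 15.7 to 27.2 CPM, and 5 of the 6 heroin libraries lay above all 4. The log2 fold change was -0.19 ± 0.43 with all libraries and 0.73 ± 0.25 without the pair (unadjusted p 0.013, adjusted p 0.998 by edgeR). With a further library left out in turn it ranged from 0.61 to 0.86, with an unadjusted p under 0.05 in 10 of 10 fits and an adjusted p never under 0.05. The 6 striated-muscle miRNAs, to which it belongs, summed to 328 CPM in saline 8 and 144.6 CPM in saline 12, against 60.8 to 129.3 CPM in the remaining 10. The other 5 without miR-206-3p summed to 164 CPM in saline 8, 67.8 CPM in saline 12 and 40.9 to 69.9 CPM in the remaining 10, so saline 12 was within that range. The list leaves out miR-1b, which was at 120 CPM in saline 12 and 492 to 1368 CPM in the other 11 libraries. With it included, the sums would be mostly miR-1b except in saline 12, where the 6 listed miRNAs summed to 144.6 CPM. The part of muscle RNA in the result was not tested.

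Most of the other positive values moved with a single heroin library. miR-122-5p, the liver miRNA, had 0.662, 2.90 and 86.9 CPM in heroin and 0.890, 1.07 and 9.24 CPM in saline, with 86.9 CPM in heroin 2, the shallowest library. Its log2 fold change was 2.52 ± 1.07, and 3.73 ± 1.36 without saline 8 and 12. Leaving out heroin 2 alone gave 0.05, and leaving it out with the pair gave 1.19. miR-122b followed it closely, at 2.62 ± 1.11. The epithelial miR-200b-3p was at 182.2 CPM in heroin 2 and 1.54 to 22.3 CPM in the other 11 libraries, and only 2 heroin libraries exceeded the median of saline. Its value of 2.03 ± 1.09 became -0.70 without heroin 2. The Htr2c-borne miR-448-3p and miR-1298 were highest in heroin 5, at 31.5 and 2019 CPM. Their values were 1.17 ± 0.51 and 1.54 ± 0.74, and 0.85 ± 0.53 and 1.65 ± 0.92 without saline 8 and 12. Without heroin 5 they were 0.60 and 0.23. The fibroblast-associated miR-199a-5p had 4.16, 17.3 and 37.4 CPM in heroin and 4.23, 7.76 and 20.8 CPM in saline, with 0.95 ± 0.45 and 0.64 ± 0.46 without the pair. It did not turn on 1 heroin library, with values of 0.77 to 1.195 when each was left out in turn. Of these 8 positive names, 7 had a higher mean in the NAc than in the PFC, as did 1 of the 8 negative names and 46.4% of all tested. The 8 positive names hold both miR-122-5p and miR-122b. Each negative name was highest in saline 8 or saline 12, which raised its PFC mean. The 1 of 8 therefore follows in part from those libraries and is no contrast with the positive names. The NAc means of the positive names were uneven too. For miR-122-5p, miR-122b and miR-200b-3p the standard deviation over the NAc libraries exceeded the mean, and for miR-10b-5p it came close to the mean. The count of positive names with a higher NAc mean is therefore a description and does not show a shared pattern. Whether tissue makeup played a part was not tested.

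**Figure D4:**
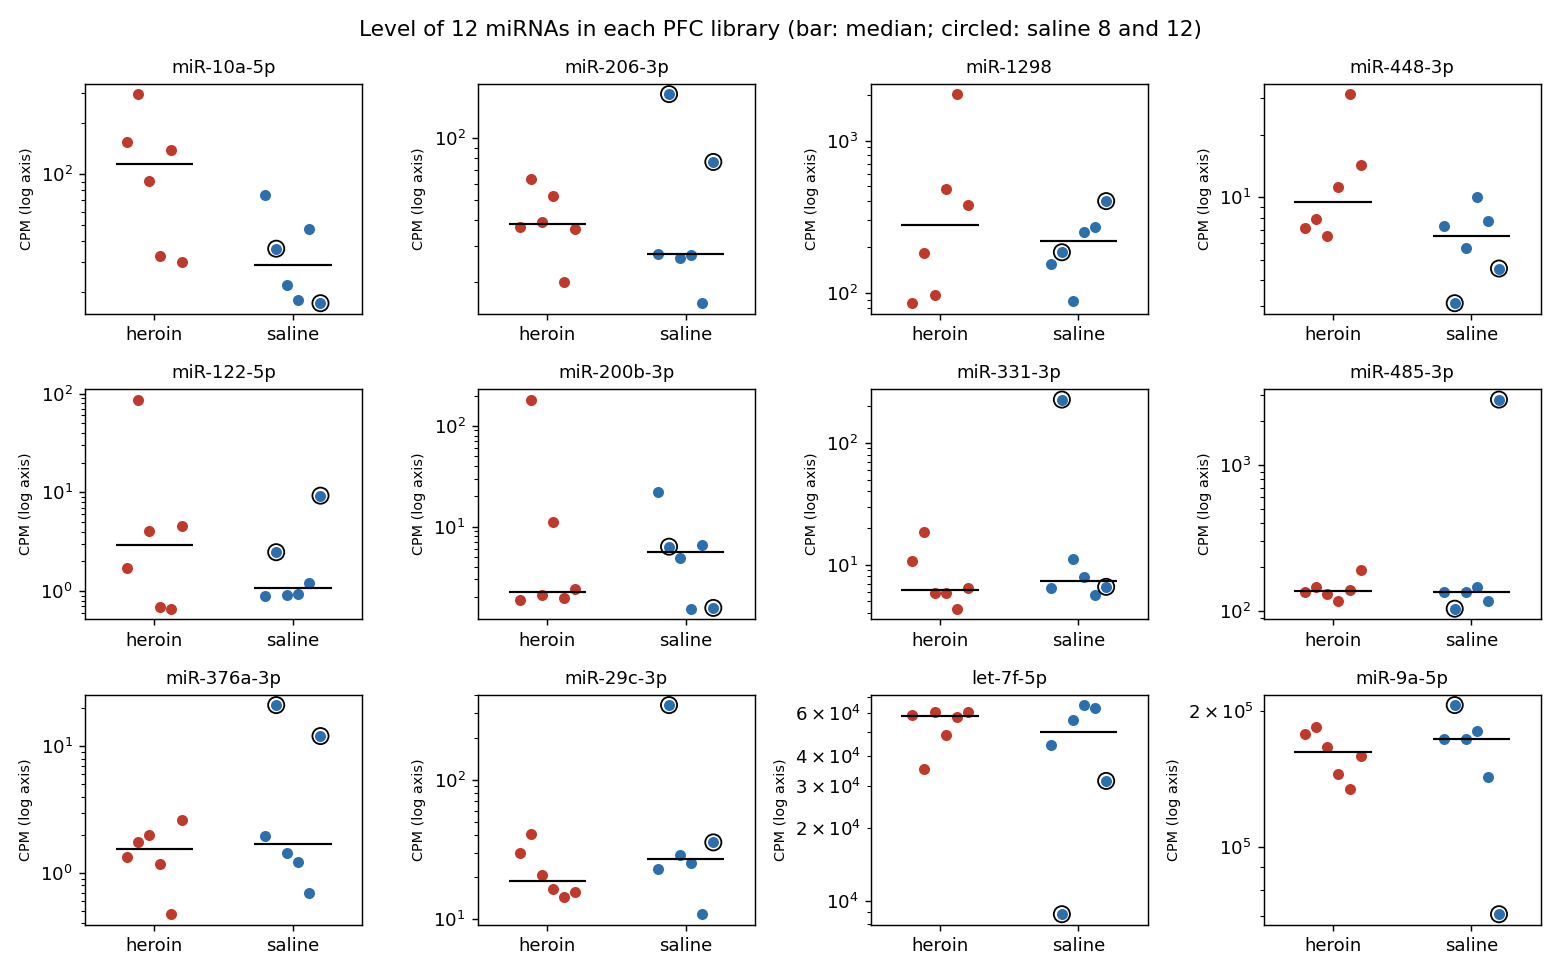
Level of 12 miRNAs in each PFC library, in CPM on a log axis (points, libraries; bars, medians; circles, saline 8 and 12). The circled points set the saline range of miR-331-3p, with 227 CPM in saline 8, and miR-485-3p, with 2804 CPM in saline 12, while miR-206-3p in the other 4 saline libraries lies at 15.7 to 27.2 CPM.

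With saline 8 and 12 left out, the smallest p-values after these went to low or modest differences. miR-653-5p, with a mean of 2.31 CPM, had 1.67 ± 0.78. On the negative side, miR-329-3p of the Dlk1-Dio3 region had 140.5, 197 and 251 CPM in heroin and 204.05, 247 and 266 CPM in the 4 saline libraries, with -0.38 ± 0.18 (unadjusted p 0.061). miR-365-3p had -0.40 ± 0.22, miR-376c-3p -0.35 ± 0.21, miR-592 -0.45 ± 0.28 and miR-222-5p -0.47 ± 0.29. None of these 6 passed.

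The precision of the comparison limits what these values show. With all libraries the common biological coefficient of variation was 50.9% and the median 95% interval reached 0.793 either side of the log2 fold change. A 95% interval lay wholly inside a 2-fold change in either direction for 213 miRNAs (47.5%). Leaving out saline 8 and 12, the coefficient fell to 37.6%, the median margin to 0.611, and 333 intervals (74%) lay inside the same bounds. Intervals inside ±0.5 on the log2 scale rose from 1 to 60. Among the 76 names with at least 1000 CPM, log2 fold changes without the pair ran from -0.30 to 0.73, and 70 intervals lay inside a 2-fold change. A p above the threshold does not show that the remaining miRNAs were alike in both groups.

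Interval widths differed among the abundant miRNAs. Without saline 8 and 12, the 95% interval was -0.34 to 0.17 for miR-9a-5p, -0.48 to 0.45 for miR-128-3p, -0.62 to 0.41 for let-7f-5p and -0.41 to 0.30 for miR-127-3p. With all libraries they were -0.39 to 0.65, -1.24 to 0.38, -0.62 to 1.22 and -0.39 to 0.67. miR-148a-3p varied widely despite its level, from 19083 to 75916 CPM within heroin and from 9641 to 76118 CPM within saline, with 0.38 ± 0.53. Among the miRNAs with at least 100 CPM the median coefficient of variation over libraries was 43.1%, and 26% without the pair. The steadiest were miR-125b-2-3p, with 405 to 669 CPM over the 12 libraries and 13%, miR-25-3p with 13.2% and miR-146b-5p with 15.2%, and then miR-337-5p with 16.6% and let-7i-5p with 17.2%. The most variable were miR-485-3p with 215%, miR-326-3p with 201%, miR-138-5p with 179%, miR-1298 with 139% and miR-674-3p with 125.8%. In the other 10 libraries, miR-485-3p was at 15% and miR-1298 still at 145.6%.

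No miRNA with a known role in synaptic plasticity passed the test. miR-132-3p, induced by CREB and BDNF, had 693, 1530 and 2845 CPM in heroin and 1307, 1438 and 1902 CPM in saline. Its log2 fold change was 0.10 ± 0.26, and -0.05 ± 0.24 without saline 8 and 12. Its cluster partner miR-212-3p, which in rats has been linked to compulsive cocaine intake, had -0.14 ± 0.33 and -0.07 ± 0.34. miR-134-5p, a dendritic repressor of Limk1, had -0.19 ± 0.38 and 0.30 ± 0.27, and miR-138-5p had -1.17 ± 0.60 and 0.16 ± 0.25. Of the 11 miRNAs of the activity and plasticity list, 0 passed, 4 values were positive and 7 negative, and the values ran from -0.69 to 0.29 with a median of -0.17, against -0.05 over all those tested. Without the pair the median was -0.01. Of the 15 neuronal miRNAs, 0 passed and 6 were positive, with medians of -0.05 and 0.02. Among them, miR-124-3p had -0.40 ± 0.35 and 0.02 ± 0.30, and miR-218a-5p 0.23 ± 0.31 and 0.10 ± 0.31.

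A list of miRNAs tied by earlier studies to opioids or reward had 18 tested members, of which 9 were positive, 9 negative and 0 passed, with a median of 0.01. Without saline 8 and 12, 6 were positive and 12 negative, with a median of -0.06. miR-23b-3p, tied to regulation of the mu opioid receptor transcript in cell work, had 328, 707 and 1246 CPM in heroin and 287, 714 and 1274 CPM in saline. Its value was -0.01 ± 0.37, and -0.35 ± 0.31 without the pair. let-7a-5p, of the family that represses the same receptor, had -0.07 ± 0.45 and -0.08 ± 0.24. Of the 9 let-7 miRNAs, 5 were positive and 4 negative with all libraries, and 1 positive and 8 negative without saline 8 and 12, with medians of 0.01 and -0.10.

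Lists for other cell types also held no miRNA that passed. All 5 oligodendrocyte miRNAs tested were negative, with a median of -0.28, and without the pair 2 were positive and 3 negative, with -0.07. Within it, miR-219a-5p, which drives oligodendrocyte maturation, was at 74.9 CPM in saline 12 and 5.33 to 26.9 CPM elsewhere, with -0.92 ± 0.51 and -0.11 ± 0.38. miR-338-3p had -0.54 ± 0.40 and -0.07 ± 0.27. The 6 miR-29 miRNAs were all negative, with a median of -0.64, and without the pair the median was -0.05. Within it, miR-29a-3p had -0.29 ± 0.26 and -0.01 ± 0.20, and miR-29b-3p -0.49 ± 0.28 and -0.09 ± 0.19. The 4 red-cell miRNAs had a median of -0.48 and of 0.13 without the pair, and miR-451-5p among them -0.60 ± 0.35 and -0.40 ± 0.36. The 7 leukocyte and microglia miRNAs had medians of 0.08 and 0.27. The 5 vascular miRNAs had medians of 0.03 and -0.06, and the endothelial miR-126a-3p had 0.03 ± 0.23 and 0.07 ± 0.19.

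The remaining lists behaved as follows. The 2 Hox-cluster miRNAs tested, miR-10a-5p and miR-10b-5p, had medians of 1.68 with all libraries and 1.56 without the pair. The 3 Htr2c intronic miRNAs had 1.17 and 1.27. The 5 miRNAs of the miR-200 and miR-183 clusters had 0.50 and 0.72, and the 3 liver miRNAs 0.18 and 0.39. The 2 mesenchymal miRNAs had 0.64 and 0.33, and the 4 striated-muscle miRNAs -0.37 and 0.14. The 5 choroid plexus and ependyma miRNAs had 0.06 and -0.04, the 8 of the miR-30 family 0.02 and -0.06 and the 8 of the miR-17 cluster and its paralogs 0.15 and 0.00. The largest list, the Dlk1-Dio3 region with 51 tested, had 23 positive and 28 negative values and medians of -0.05 and 0.00. None of the lists held a passing member, and several share members.

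**Figure D5:**
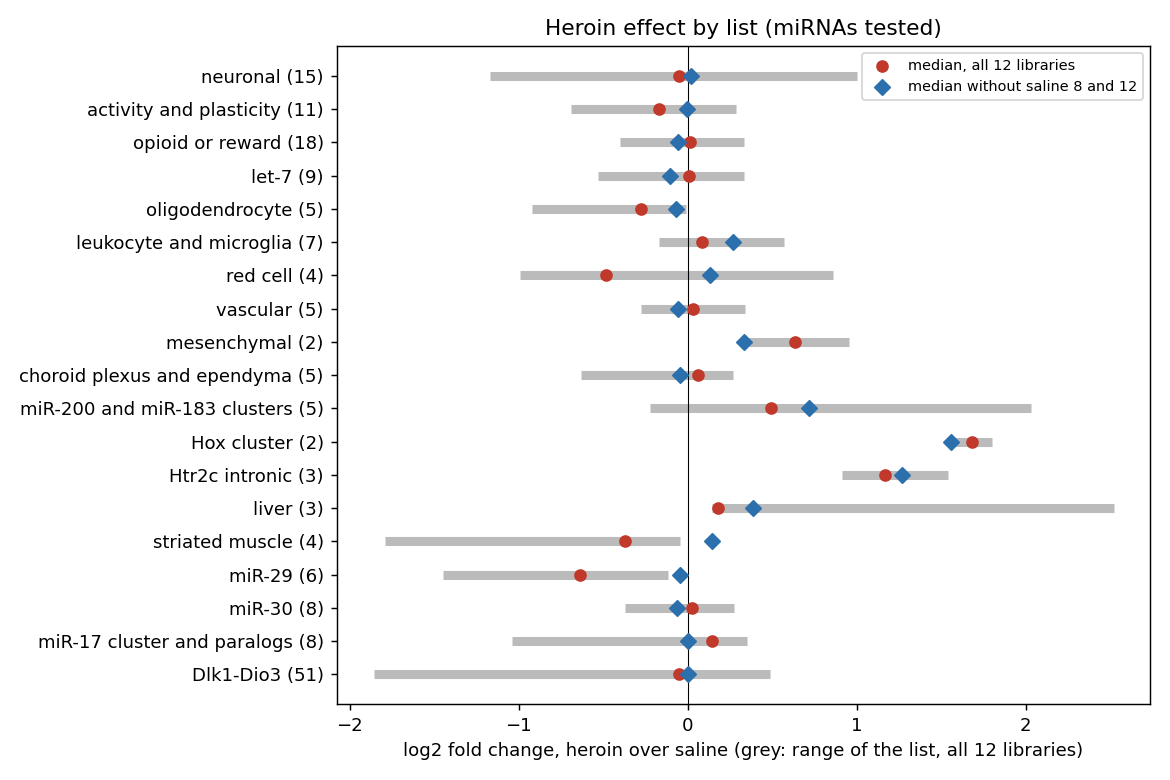
Median log2 fold change, heroin over saline, of each miRNA list with all 12 libraries (red circles) and without saline 8 and 12 (blue diamonds), with the range of its members over all 12 libraries in grey and the number tested in brackets. The medians of the miR-29 list move from -0.64 to -0.05 and those of the striated-muscle list from -0.37 to 0.14.

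Summing counts by seed did not bring out a family. Of 319 seed families tested, 0 passed (0%), the smallest adjusted p was 0.999 by edgeR, and 12 (3.76%) had an unadjusted p under 0.05. The 4 smallest were the families of miR-10a-5p, miR-10b-5p, miR-122-5p and miR-331-3p, each of 1 name, with log2 fold changes of 1.81 ± 0.53, 1.55 ± 0.63, 2.62 ± 1.06 and -1.92 ± 0.79. The let-7 family as a whole had 0.17 ± 0.31, and -0.11 ± 0.18 without saline 8 and 12. The miR-7 family had 0.92 ± 0.54 and 0.63 ± 0.63, with heroin 5 at the top.

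Arm usage was tested as the log2 ratio of 5p to 3p counts. Of the hairpins, 0 passed (0%), the smallest adjusted p was 0.926 by limma, and 1 (0.746%) had an unadjusted p under 0.05. The hairpin under 0.05 was the erythroid miR-144, with ratios of 0.32 ± 1.02 in heroin and -0.95 ± 1.06 in saline (SD, n = 6 each). The difference was 1.27 ± 0.55 (SE), and 0.71 without saline 8 and 12. Counts of miR-144 were low, 0 to 37 for the 5p arm and 1 to 27 for the 3p arm. Heroin 2 had 1 count of each arm, and saline 7 had 0 and 1, so the 1 added to each count weighed on these ratios. The hairpins with the next smallest p were miR-376a, miR-362 and miR-374, with differences of 1.28 ± 0.67, -0.90 ± 0.52 and -1.15 ± 0.73. Without the pair, 0 had an unadjusted p under 0.05.

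The heroin effect in the PFC was set against that in the NAc as an interaction over 24 libraries. Of 491 miRNAs, 0 passed (0%), the smallest adjusted p was 0.816 by edgeR, and 19 (3.87%) had an unadjusted p under 0.05. miR-10a-5p had an NAc log2 fold change of 0.49 ± 0.40, and the difference, PFC minus NAc, was 1.31 ± 0.69. The NAc libraries varied less, with a common biological coefficient of variation of 38%, close to the 37.6% of the PFC without saline 8 and 12. Library measures were compared with exact two-sided permutation tests, and none of 5 passed. Names detected were 634 ± 30.2 in heroin and 640 ± 30.9 in saline (SD, n = 6 each; adjusted p 0.957).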

How the data were processed

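The deposited counts per mature miRNA, 1 column a library, were the input. The deposited TPM values equalled a count divided by its library total and multiplied by 1e+06, with no length term, over all 30996 values. Per the submitters' processing notes, Bowtie and rn6 were used. Not given in the sources used here are versions, the miRNA annotation and the rule for strand or multiple matches. The 155 predicted names stayed in the fits and are not described. No 2 PFC libraries of the same group agreed within sampling noise (smallest chi-square per degree of freedom 172 over 30 pairs within groups).

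Counts were tested with edgeR 4.0.16 in R 4.3.3 (TMM, filterByExpr with a minimum count of 10, quasi-likelihood F test, Benjamini-Hochberg at 0.05 over all rows tested). The filter left out 258 annotated names. Standard errors were derived from the F statistic and the log2 fold change. Seed families were summed counts. Arm ratios, log2((5p + 1)/(3p + 1)) for hairpins with a mean of at least 10 counts per arm, were tested with limma 3.58.1. DESeq2 1.42.0 and limma-voom were alternatives. The edgeR, DESeq2, limma-voom, limma, interaction and arm-ratio tests were tried on simulated counts. These counts had less spread than the PFC libraries and no library that stood apart. They therefore do not show how the tests perform on these data. The permutation tests and the sample quality weights were not tried in this way. CPM are counts per 1e+06 of the library total, and total counts limit the precision of low values. Sequences came from RefSeq (GRCr8), matched by name for 641 names. Only names with at least 500 summed PFC counts were compared for pairs. They were treated as a pair where their counts differed by at most 5% and at least 16 bases were complementary or alike, or, lacking a sequence, by under 1%.

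The members, lists and named miRNAs were chosen with earlier results of these data known. Named were the 10 leading miRNAs, the 8 smallest p in each direction (5 without saline 8 and 12), a panel of 20, the 4 highest and 4 lowest against the other libraries in saline 8, saline 12 and heroin 5, the 5 steadiest and 5 most variable, and the 4 seed families and arm ratios of smallest p. The base criterion for pairs, the comparison with NAc levels, the repeated fits without saline 8, saline 12 and a further library, the counts with each pair taken once, the muscle sum without miR-206-3p and the arm examples were added after seeing the data.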

Additional observations from a re-analysis of the deposited data

Results flagged for a closer look

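Each named miRNA and library measure was examined within the heroin and the saline group of 6, and a library was picked out where its gap to the next value took a share of the group's range above Dixon's 95% critical value. Chance alone picks out about 5% of groups, but many of these miRNAs were named because saline 8, saline 12 or heroin 5 was extreme in them, so that figure is no yardstick here. With 71 quantities in each group, 38 values were picked out, of which 23 were in saline 8 or saline 12. Both counts follow in part from that choice of miRNAs and are a description. The miRNAs and the library measures are not independent of each other.

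In saline 12 the highest value of the group was miR-128-3p at 245029 CPM, miR-485-3p at 2804 CPM, miR-674-3p at 3779 CPM, miR-543-3p at 2092 CPM, miR-9b-5p at 473 CPM, miR-760-3p at 201 CPM, miR-338-3p at 168 CPM and miR-219a-5p at 74.9 CPM. The same library was highest in miR-653-5p at 10.5 CPM, miR-122-5p at 9.24 CPM and miR-122b at 7.99 CPM, and lowest in miR-1b at 120 CPM. In saline 8 the highest values were miR-29a-3p at 7812 CPM, miR-124-3p at 3367 CPM, miR-138-5p at 2144 CPM, miR-134-5p at 1987 CPM, miR-326-3p at 830 CPM and miR-664-2-5p at 458 CPM. The same held there for miR-29c-3p at 341.2 CPM, miR-331-3p at 227 CPM, miR-212-3p at 217 CPM, miR-151-5p at 173 CPM and miR-324-3p at 9.27 CPM. Saline 7 was highest in miR-200b-3p at 22.3 CPM.

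In heroin 2, the shallowest library, the highest values of its group were miR-26a-5p at 45111 CPM, miR-138-5p at 318 CPM, miR-212-3p at 207 CPM, miR-200b-3p at 182.2 CPM, miR-326-3p at 151 CPM, miR-122-5p at 86.9 CPM, miR-122b at 75.7 CPM and miR-151-5p at 28.95 CPM. Heroin 5 was highest in miR-7a-5p at 78355 CPM, miR-7b at 7237 CPM, miR-1298 at 2019 CPM and miR-448-3p at 31.5 CPM. Heroin 4 was highest in miR-674-3p at 1067 CPM, and heroin 3 lowest in miR-25-3p at 452 CPM.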

How the results depend on the processing

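All 5 counts of miRNAs, seed families, arm ratios or interactions that passed were 0, and they were 0 in all 77 recalculations (other scaling, no filter, DESeq2, limma, robust fits, names counted once, annotated rows only, all 24 brain libraries and libraries left out). For the main comparison the number at an unadjusted p under 0.05 ran from 2 with limma-voom to 38 with all 24 brain libraries. The number of miRNAs tested also differed between recalculations. These counts are therefore not shares, and they were not set against the share that chance alone would give. The signs of single miRNAs depended on the libraries: of 40 named fold changes, 17 kept their direction in all 25 alternatives.

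Without saline 8 and 12, 11 values turned: miR-331-3p to 0.051, miR-376a-3p to 0.25, miR-323-5p to 0.14, miR-485-3p to 0.086, miR-29c-3p to 0.018, miR-206-3p to 0.73, miR-124-3p to 0.017, miR-9a-5p to -0.089, miR-132-3p to -0.048, miR-134-5p to 0.30 and miR-138-5p to 0.16. Leaving out heroin 5 as well gave 0.15, 0.45, 0.21, 0.047, 0.078, 0.85, 0.11 and -0.084 for the first 8, 0.22 for miR-134-5p, 0.17 for miR-138-5p, 0.076 for miR-212-3p, -0.065 for miR-218a-5p and 0.017 for miR-29a-3p. With limma-voom, miR-206-3p was 0.10, miR-376c-3p 0.012, miR-592 0.069, miR-23b-3p 0.052 and let-7a-5p 0.23. Sample quality weights gave -0.51 for miR-200b-3p, 0.27 for miR-376a-3p, 0.040 for miR-485-3p, 0.58 for miR-206-3p, -0.040 for miR-9a-5p, -0.064 for miR-132-3p, 0.15 for miR-134-5p and 0.052 for let-7a-5p. On log2(TPM + 1), miR-132-3p was -0.035, miR-126a-3p -0.088 and let-7a-5p 0.12. With library size alone, miR-653-5p was -0.0023 and miR-126a-3p -0.088. miR-23b-3p, at -0.01 in the report, was 0.017 with DESeq2 and with its size factors, 0.023 with all 24 libraries, 0.031 with annotated rows only and 0.029 with names counted once. The cause was not tested.

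With 1 library left out at a time, the values that turned ranged from -2.21 to 0.15 (miR-331-3p), -2.04 to 0.25 (miR-485-3p), -1.36 to 0.21 (miR-138-5p), -0.70 to 2.84 (miR-200b-3p), -0.32 to 0.36 (miR-206-3p), -0.25 to 1.81 (miR-653-5p), -0.34 to 0.033 (miR-376c-3p), -0.26 to 0.16 (miR-592), -0.023 to 0.23 (miR-9a-5p), -0.50 to 0.11 (miR-128-3p), -0.035 to 0.28 (miR-132-3p), -0.44 to 0.080 (miR-212-3p), -0.27 to 0.34 (miR-134-5p), -0.68 to 0.0081 (miR-338-3p), -0.038 to 0.14 (miR-126a-3p), -0.19 to 0.23 (miR-23b-3p) and -0.25 to 0.22 (let-7a-5p).

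Heroin and saline PFC libraries share no number, so no paired analysis was possible within the PFC. Across tissues, same-numbered PFC and NAc libraries had correlations of -0.17 to 0.70, above 0.1 in 8 of 12, and the labels do not say that a number marks an animal. With the number as a replicate block the interaction had 0 calls, as without it.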
